A study of Mus musculus with 4 samples.

Results

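The genes described here are those named for proteins of the mitochondrial ribosome. They were taken as the protein-coding genes whose symbols begin with Mrpl or Mrps and a digit, which gave 76 genes of the 21470 in the count table, 48 of the large subunit (Mrpl) and 28 of the small subunit (Mrps). The rule used names only, and no measured value, and the subunit is the one in the name. A name does not show that a protein is part of the ribosome, and Mrps36 was also left out as an alternative. RNA had been measured in wild-type (WT) mouse embryos whose fathers were B6D2F1 and mothers ICR, in the inner cell mass (ICM, the embryonic side) and the trophectoderm (TE, the extra-embryonic side), at 2 times labelled E4 and D10. Each of the 4 groups, E4 ICM, E4 TE, D10 ICM and D10 TE, had 5 barcoded replicates. The series title places the times before and after embryonic diapause, a reversible arrest of the blastocyst, while the protocol speaks of diapause embryos for all of them, and these sources conflict. The list of barcodes gives before for E4 and day6 for D10, and shows a zona pellucida in the litters of E4 replicates 1 and 2 and in no other litter.

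The mitochondrial ribosome makes the few proteins encoded by mitochondrial DNA, all of them core parts of the respiratory chain and ATP synthase. Its RNAs come from mitochondrial DNA, but its proteins are encoded in the nucleus, made in the cytosol and imported. Some of these proteins have counterparts in the bacterial ribosome, and others were added in the mitochondrial lineage. The mitochondria of the early embryo are inherited from the oocyte, and their respiratory activity increases towards the blastocyst stage.

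The libraries held 144276 to 1010354 counts each, and the 76 genes together held 0.406% to 0.714% of a library's counts. The counts are of 3′ ends of transcripts, and a count of 0 allowed a level of up to 3.15 CPM in the deepest library and 21.5 CPM in the shallowest (3 counts, counting error only). CPM express counts relative to a library's scaled size. Of the 76 genes, 72 passed the filter on low counts and were tested, 47 large and 25 small, and 70 had a count in every library. All replicates of a group were mixed before PCR, so that amplification pool and group cannot be told apart. Summed trophectoderm markers were 3275 ± 618 and 5105 ± 986 CPM (SD, n = 5) in the E4 and D10 ICM libraries, against 10128 ± 1322 and 10362 ± 1056 CPM in the TE libraries. The epiblast transcription factor gene Sox2 had 421 and 470 counts in the ICM at E4 and D10, against 1 and 0 in the TE. The summed epiblast markers separated the tissues less, with 2942 ± 577 CPM for ICM and 2374 ± 946 for TE at E4, and 1370 ± 272 and 700 ± 222 CPM at D10. Of 10 tested epiblast markers, 9 were higher in the ICM at E4, and 1, Dppa5a, was lower, at 834 ± 142 CPM against 2250 ± 915 CPM in the TE. Of the uterine and blood markers 0 passed the filter, and their summed levels reached at most 115 and 151 CPM in a library. In such bulk tissue, fewer cells of a type and less RNA per cell cannot be told apart.

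DNA before the transcription start is shown for 4 members whose levels differed, namely Mrpl17 and Mrps2, which were higher in the ICM than in the TE at both times, and Mrpl20 and Mrpl22, which fell between E4 and D10 in the ICM. Each run covers bases 150 to 21 before the start listed by RefSeq (GRCm38.p6), 5′ to 3′ on the strand of the gene, with motif matches in capitals. Mrpl17 lies on the minus strand (chr7:105811108-105811237). The other 3 lie on the plus strand, Mrps2 at chr2:28467916-28468045, Mrpl20 at chr4:155802728-155802857 and Mrpl22 at chr11:58171514-58171643.
Mrpl17: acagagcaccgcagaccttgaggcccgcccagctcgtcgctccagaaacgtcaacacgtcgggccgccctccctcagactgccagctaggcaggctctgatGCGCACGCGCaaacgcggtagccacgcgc
Mrps2: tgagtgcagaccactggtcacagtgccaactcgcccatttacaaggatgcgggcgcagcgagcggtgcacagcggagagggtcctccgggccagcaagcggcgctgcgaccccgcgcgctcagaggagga
Mrpl20: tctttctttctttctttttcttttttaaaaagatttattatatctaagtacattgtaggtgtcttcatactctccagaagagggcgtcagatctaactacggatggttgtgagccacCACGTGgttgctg
Mrpl22: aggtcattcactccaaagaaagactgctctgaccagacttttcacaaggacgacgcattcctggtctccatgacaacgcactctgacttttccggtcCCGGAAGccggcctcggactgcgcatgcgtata

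The capitals mark an NRF1-type match in Mrpl17 (GCGCA, any base, GCGC, with its first base 49 bases before the start), an E-box in Mrpl20 (CACGTG, 33 bases before) and an ETS-type match in Mrpl22 (CCGGAAG, 53 bases before). Mrpl17 also had ETS letters 237 bases before its start, outside the run shown. The window of Mrps2 held none of the 4 motifs searched, which says only that these letters are not there. NRF1 and the ETS-family factor GABP are known activators of nuclear genes for mitochondrial proteins. RefSeq promoters, from 250 bases before to 50 after a start, were matched for 68 of the 76 genes (74 promoters), and both strands were searched. The NRF1 letters were found in 17.6% of these promoters against 4.6% of all 32851, and the ETS letters in 33.8% against 8.86%. The 32851 were not limited to genes that passed the filter here, so these shares do not single out this family. A YY1-type match (AAGATGGCG) was in 10.8% against 1.4%, and the E-box in 9.46% against 7.15%. Some genes have several listed starts, and the 3 starts of Mrpl2 share 1 E-box. Counted by gene, the NRF1, ETS, YY1 and E-box letters were in 19.1%, 36.8%, 11.8% and 7.35% of the 68 genes. The E-box share by gene is thus near that of all promoters. The ETS letters can run on into the YY1 letters, so that a match of each may share bases. Mrpl39, which is described below, had the NRF1 letters 125 bases before its RefSeq start, and Mrpl50 had no match in its promoter. A match is a description of letters and not a binding site.

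The mean summed level of the large subunit genes was highest in E4 ICM, and the small subunit genes overlapped between all groups. Large subunit genes summed to 4538 ± 296 CPM in E4 ICM (SD, n = 5) and 3797 ± 310 in E4 TE, against 3790 ± 652 in D10 ICM and 3533 ± 436 in D10 TE. Every E4 ICM library, at 4318 CPM or more, was above every E4 TE library, at 4218 CPM or less, and above every D10 TE library. It overlapped D10 ICM, where replicate 4 at 4603 CPM was above 4 of the 5 E4 ICM libraries, and the D10 groups overlapped each other. Small subunit genes summed to 1926 ± 136 CPM for ICM and 1714 ± 78.0 CPM for TE at E4, then 1727 ± 242 and 1747 ± 167 CPM at D10, with overlap between all groups. The ratio of large to small subunit counts was 2.36 ± 0.13 in E4 ICM and 2.22 ± 0.22 in E4 TE, and at D10 it was 2.19 ± 0.17 in ICM and 2.02 ± 0.13 in TE. The highest ratio of a D10 TE library, 2.16, was below the lowest of an E4 ICM library, 2.19, and all other pairs of groups overlapped. These sums are a description of chosen genes and were not tested.

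**Figure D1:**
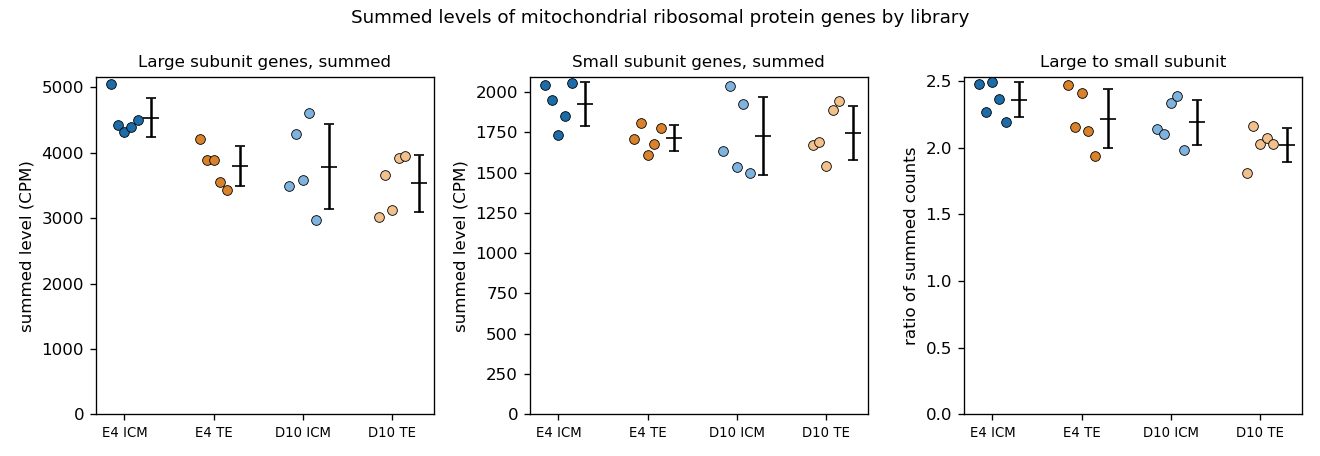
Summed level of the large subunit genes and of the small subunit genes in CPM, and the ratio of their counts, for each of the 20 libraries (points, 5 in each group), with the group mean and SD (bars). The mean large subunit sum is highest in E4 ICM (4538 ± 296 CPM), with 1 D10 ICM library among its values, and the mean ratio is lowest in D10 TE (2.02 ± 0.13).

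By the CPM of 3′ ends, which is not a level per length and ranks no gene against another, the most counts of the large subunit came from Mrpl18, Mrpl21 and Mrpl36, and of the small subunit from Mrps14, Mrps12 and Mrps2. Mrpl18, a protein of the central protuberance that contacts RNA there, was at 296 ± 32.3 and 288 ± 40.0 CPM in ICM and TE at E4, and at 205 ± 60.3 and 207 ± 24.2 CPM at D10. Its log2 difference between D10 and E4 was -0.50 ± 0.19 (SE) in the ICM and -0.48 ± 0.19 in the TE, with adjusted p = 0.0577 and 0.0697, which passed in neither. Mrpl21 and Mrpl36 differed by at most 0.25 on the log2 scale in any of the 4 group comparisons. The tested members with the fewest counts were Mrpl23, described below, and Mrps16, which was at 24.1 ± 1.99, 27.1 ± 7.16, 25.1 ± 6.01 and 28.1 ± 7.96 CPM in E4 ICM, E4 TE, D10 ICM and D10 TE. Of the 4 members not tested, Mrps18b had 6 counts in all 20 libraries, with 0 in ICM and 1 in TE at E4, and 3 and 2 at D10. The other 3 were Mrpl24 with 36 counts, Mrps11 with 54 and Mrps33 with 127. Mrps18b is 1 of 3 related genes whose proteins occupy different places in the ribosome. The other two, Mrps18a and Mrps18c, had means of 43.4 to 64.7 and 59.3 to 67.4 CPM over the groups, and neither passed in any comparison.

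In the ICM between E4 and D10, 9 of 72 tested members changed, and 7 of the 9 fell. The test was edgeR's quasi-likelihood test on all 6943 genes that passed the filter, with Benjamini-Hochberg adjustment and a threshold of 0.05. It called 2 members higher at D10 and 7 lower, against 13.7% of all tested genes higher and 9.97% lower. The share of members called lower was near that of all genes and is no result about the family. By subunit, 1 large and 1 small member rose, and 3 large and 4 small members fell. The median log2 difference was -0.21 over the large and -0.19 over the small subunit genes, against 0.00 over all tested genes, and 50 of the 72 values were negative. In libraries thinned to the smallest total, where 47 members were tested, the small subunit median was 0.16.

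Mrpl20, a large subunit protein with a bacterial counterpart, fell furthest. Its levels were 38.0, 73.1, 41.7, 45.5 and 51.6 CPM in the E4 ICM libraries and 9.51, 8.24, 0, 30.4 and 4.64 CPM in the D10 ICM libraries (replicates 1 to 5). Every D10 ICM library was below every E4 ICM library, and the 0 in replicate 3 allowed up to 16.6 CPM. The log2 difference was -1.79 ± 0.45 (adjusted p = 0.00503), and -2.93 without D10 ICM replicate 4, the highest of its group. In the TE the same difference was -0.09 ± 0.45 (95% interval -1.01 to 0.83), and the difference between the tissues' changes was -1.71 ± 0.64 with adjusted p = 0.124, which did not pass.

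Mrpl23, a protein at the exit of the peptide tunnel, rose in the ICM. It had 12.7, 10.4, 11.6, 12.4 and 4.30 CPM in the E4 ICM libraries and 28.5, 42.8, 33.2, 38.8 and 18.6 CPM in the D10 ICM libraries, with no overlap. The log2 difference was 1.66 ± 0.46 (adjusted p = 0.0099). This rests on 18 counts in E4 ICM and 79 in D10 ICM, and the processed pseudogene Mrpl23-ps1 had 9 and 54 counts in the same groups. How reads shared by the gene and its copy were counted is not given in the sources used here, so the value of Mrpl23 is uncertain.

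Mrpl22, which lines the peptide tunnel, had 101, 107, 64.9, 80.6 and 77.4 CPM in E4 ICM and 33.3, 56.0, 5.54, 59.8 and 13.9 CPM in D10 ICM. It fell by 1.09 ± 0.35 on the log2 scale (adjusted p = 0.0250), with every D10 library below every E4 library. Mrpl4, a tunnel protein with a bacterial counterpart, fell by 0.85 ± 0.30 (adjusted p = 0.0388), from a mean of 48.4 ± 10.0 to 25.2 ± 10.1 CPM, with 1 D10 library inside the E4 range. Among the small subunit genes, Mrps23, Mrps24, Mrps12 and Mrps30 fell by 0.70 to 0.78 on the log2 scale. Mrps12, the protein next to the decoding centre, went from 153 ± 27.0 to 89.7 ± 23.1 CPM, with an adjusted p of 0.0235 and no overlap. Mrps24, the counterpart of a bacterial protein at the entry of the messenger RNA, went from 92.3 ± 17.3 to 50.3 ± 11.7 CPM (adjusted p = 0.0184). Mrps23, added in the mitochondrial lineage, went from 117 ± 37.2 to 65.0 ± 9.21 CPM (adjusted p = 0.0150). Mrps30 sits in the large subunit by structure despite its name, and went from 85.5 ± 13.2 to 51.9 ± 9.15 CPM (adjusted p = 0.0350). Mrps14 rose by 0.59 ± 0.20 (adjusted p = 0.0353), from 129 to 167 CPM over the E4 libraries to 149 to 313 CPM over the D10 libraries, which overlapped.

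Of these 9 changes, only those of Mrpl20 and Mrpl23 passed under every alternative in which the gene was tested. With the 2 zona litters left out of E4, 1 member was called lower and 1 higher, beside 4.97% and 9.52% of all genes. With scaling by library totals alone, which moved the median of all genes to -0.20, 18 were called lower, beside 1111 of all 6943 genes. Leaving out 1 library ended the call of Mrps23 (without E4 ICM replicate 1, adjusted p = 0.0599), Mrps24 (E4 ICM 1 or D10 ICM 2, 0.0501 and 0.0532), Mrps12 (E4 ICM 1, D10 ICM 3 or 4, 0.0554 to 0.0698) and Mrpl22 (E4 ICM 1 or 2, D10 ICM 3 or 5, 0.0523 to 0.0736). It also ended that of Mrps14 (E4 ICM 2, 3 or 5, D10 ICM 2 or 3, 0.0512 to 0.134), Mrps30 (E4 ICM 2 to 5, D10 ICM 1, 2, 3 or 5, 0.0501 to 0.0889) and Mrpl4 (the same 8 or D10 TE 5, 0.0502 to 0.124). The number called lower was 3 or 4 without E4 ICM replicate 1 or 2 or D10 ICM replicate 3 or 5. The number called higher was 1 without E4 ICM replicate 2, 3 or 5 or D10 ICM replicate 2. In the ICM libraries, summed primitive endoderm markers were 3311 ± 1179 CPM at E4 and 10016 ± 1131 at D10, and epiblast markers 2942 ± 577 and 1370 ± 272. Their part in these changes was not tested.

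In the TE between E4 and D10, 5 large subunit genes fell and 2 small subunit genes rose, of 72 tested members. Over all tested genes 9.89% were called lower and 11.9% higher, and neither share of members exceeded these. The median log2 difference was -0.04 over the large and 0.02 over the small subunit genes, beside 0.02 over all tested genes. For 46 of the 72 members the 95% interval lay within a 2-fold change in either direction.

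Mrpl50 and Mrpl39, both added to the ribosome in the mitochondrial lineage, fell most. Mrpl50 (chromosome 4) had 34.5, 41.5, 68.2, 53.8 and 64.4 CPM in the E4 TE libraries and 20.1, 16.3, 26.1, 29.7 and 19.1 CPM in the D10 TE libraries, with no overlap. The log2 difference was -1.23 ± 0.27 (adjusted p = 0.00164). Its ICM levels were 56.6 ± 11.2 CPM at E4 and 45.0 ± 12.2 CPM at D10, a log2 difference of -0.33 ± 0.26 that did not pass (adjusted p = 0.388).

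Mrpl39 (chromosome 16) had 57.5, 66.4, 58.4, 43.8 and 35.8 CPM in E4 TE and 9.13, 12.2, 20.1, 33.2 and 24.6 CPM in D10 TE. Every D10 TE library was below every E4 TE library, and the log2 difference was -1.40 ± 0.32 (adjusted p = 0.00216). In the ICM it had 50.7, 75.7, 71.8, 51.7 and 60.2 CPM at E4 and 57.0, 74.2, 127, 101 and 69.7 CPM at D10. That difference was 0.45 ± 0.27 and did not pass (adjusted p = 0.253). The change with time differed between the tissues by 1.85 ± 0.42 on the log2 scale, with an adjusted p of 0.00893 over all 6943 genes. It was the only member called in the test of that difference, against 3.15% of all genes called in its direction and 1.83% in the other, and 3 and 6 members had an unadjusted p under 0.05. DESeq2 and limma voom also called 1 member in its direction and 0 in the other, and without D10 ICM replicate 4 edgeR called 1 in the other. Without the zona litters the adjusted p of Mrpl39 was 0.0597, and in thinned libraries 0.201.

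**Figure D2:**
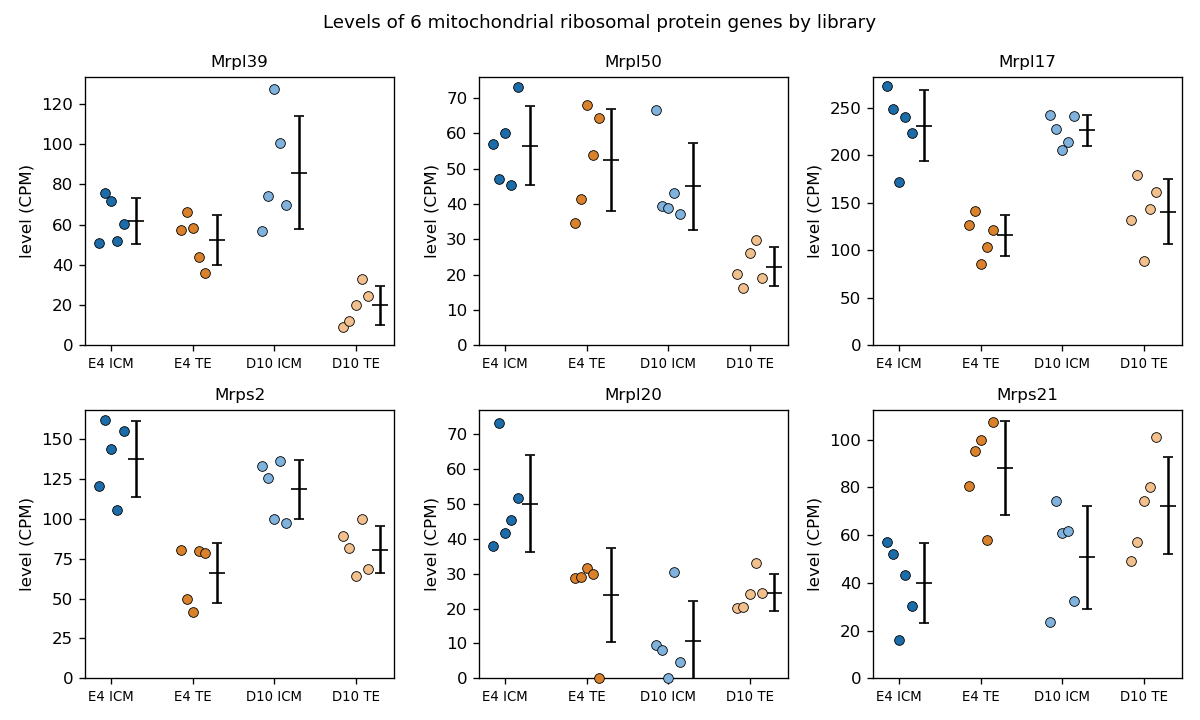
Level in CPM of Mrpl39, Mrpl50, Mrpl17, Mrps2, Mrpl20 and Mrps21 in each library (points, 5 in each group), with mean and SD (bars, cut at 0 for Mrpl20). The 5 D10 TE libraries lie between 9.13 and 33.2 CPM for Mrpl39, below the other 3 groups, and Mrpl17 lies higher in both ICM groups than in the TE group of the same time.

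The other TE changes were smaller. Mrps15, a small subunit protein with a bacterial counterpart, rose by 1.18 ± 0.33 (adjusted p = 0.0120), from 51.8, 20.7, 58.4, 59.8 and 57.2 CPM at E4 to 85.8, 222, 50.2, 117 and 98.3 CPM at D10. D10 TE replicate 2 stood highest, and without it the difference was 0.78, while replicate 3 lay inside the E4 range. Mrps6, also with a bacterial counterpart, rose by 1.00 ± 0.32 (adjusted p = 0.0278), from a mean of 54.6 ± 11.7 to 111 ± 52.1 CPM. Mrpl4 fell by 0.83 ± 0.29 in the TE (adjusted p = 0.0394), beside the 0.85 ± 0.30 in the ICM. Mrpl27, a protein near the site of peptide bond formation, fell by 0.85 ± 0.30 (adjusted p = 0.0404), and Mrpl3, beside the same site, by 0.55 ± 0.20 (adjusted p = 0.0436).

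Mrpl50 kept its call under every alternative in which it was tested, but it was not tested in thinned libraries. Mrpl39 kept its call under all but thinning (adjusted p = 0.164). Without 1 library, the call was lost for Mrps15 (D10 TE 2, adjusted p = 0.0723), Mrps6 (E4 TE 1, 2, 3 or 5, D10 TE 4 or 5, 0.0510 to 0.135), Mrpl4 (E4 TE 1, 2 or 5, D10 TE 1, 3 or 4, 0.0549 to 0.0889), Mrpl27 (E4 TE 2, 3 or 4, D10 TE 2 or 3, 0.0650 to 0.102) and Mrpl3 (E4 TE 1, 2, 4 or 5, D10 TE 2, 3 or 4, 0.0577 to 0.101). The 5 members called lower were 2 or 3 without E4 TE replicate 1, 2 or 4 or D10 TE replicate 2, 3 or 4. The 2 called higher were 1 without E4 TE replicate 1, 2, 3 or 5 or D10 TE replicate 2, 4 or 5. In the TE libraries, summed primitive endoderm markers were 1429 ± 163 CPM at E4 and 3330 ± 562 CPM at D10, and epiblast markers 2374 ± 946 and 700 ± 222 CPM. Most of the epiblast sum in E4 TE came from Dppa5a, the marker that was lower in the ICM. Between the times in the TE, edgeR called 1 of 10 tested epiblast markers higher and 1 lower. Of 11 tested primitive endoderm markers it called 2 higher and 0 lower. The part of these markers in the TE changes was not tested.

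At E4 the ICM and the TE differed in 12 members, 11 of them higher in the ICM. This was 5 large and 6 small subunit genes higher and 1 small subunit gene lower, of 72, beside 15.8% of all tested genes higher in the ICM and 15.4% lower. The share called higher was thus near that of all genes, and the 1 member called lower below it. The median log2 difference (ICM minus TE) was 0.21 over the large and 0.12 over the small subunit genes, against 0.03 over all tested genes, and 49 of 72 values were positive. Without E4 ICM replicate 2 the small subunit median was -0.070. The groups did not overlap for 10 members that were higher and 2 that were lower, against 10.8% and 9.94% of all genes.

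Mrpl17, a protein near the tunnel exit with a bacterial counterpart, had 273, 248, 171, 240 and 224 CPM in E4 ICM and 127, 141, 85.2, 104 and 122 CPM in E4 TE. The lowest ICM library was above the highest TE library, and the log2 difference was 1.01 ± 0.21 (adjusted p = 0.000513). Mrps2, a protein at the back of the small subunit, had 120, 162, 144, 105 and 155 CPM in E4 ICM and 80.6, 49.8, 41.4, 79.7 and 78.7 CPM in E4 TE. It was higher in the ICM by 1.08 ± 0.23 (adjusted p = 0.000705), again with no overlap.

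Mrpl15, a bacterial-type large subunit protein, had 241, 120, 169, 151 and 194 CPM in E4 ICM and 121, 83.0, 87.6, 53.8 and 93.0 CPM in E4 TE. Only ICM replicate 2, at 120 CPM, fell within the TE range, and the log2 difference was 1.01 ± 0.26 (adjusted p = 0.00439). The same comparison at D10 gave 0.17 ± 0.24 (adjusted p = 0.658), and the difference between the times, -0.84 ± 0.36, did not pass (adjusted p = 0.186). Mrps21 was the member that went the other way. It had 57.1, 52.2, 16.2, 43.4 and 30.1 CPM in E4 ICM and 80.6, 95.4, 99.8, 57.8 and 107 CPM in E4 TE, with a log2 difference of -1.16 ± 0.33 (adjusted p = 0.00826).

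The other 8 members that were higher in the ICM at E4 had log2 differences of 0.63 to 1.08. Mrpl30 was higher by 0.87 ± 0.25 (adjusted p = 0.00802) and Mrps30 by 0.88 ± 0.25 (adjusted p = 0.00976), where E4 TE replicate 5, at 93.0 CPM, lay within the ICM range. Mrps5 was higher by 0.80 ± 0.25 (adjusted p = 0.0155) and Mrpl52, of the mitochondrial lineage, by 1.08 ± 0.35 (adjusted p = 0.0205). Mrpl28, Mrps24, Mrps15 and Mrps27 passed with adjusted p between 0.0308 and 0.0447. Mrps24 and Mrps30 also stand among the genes that fell in the ICM, and both comparisons use the same E4 ICM libraries. Mrps15 also stands among the genes that rose in the TE, and both of its calls use the same E4 TE libraries. Of these, replicate 2 was low (20.7 CPM, others 51.8 to 59.8). Mrps14, which rose in the ICM, was at -0.53 ± 0.20 here and did not pass (adjusted p = 0.0519), although its groups did not overlap.

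Mrpl17, Mrps2, Mrpl15 and Mrps21 kept their calls under every alternative run. Without the zona litters 4 members were called higher, beside 10.4% of all genes. Mrpl30 and Mrps30 did not pass without the zona litters (adjusted p = 0.159 and 0.0584), nor did Mrps30 with no filter (0.0726). A single library left out ended the call of Mrps5 (E4 ICM 4 or E4 TE 1, adjusted p = 0.0523 and 0.0550), Mrpl52 (E4 ICM 5, E4 TE 3 or 4, 0.0559 to 0.0738), Mrpl28 (E4 ICM 1, 2, 3 or 5, E4 TE 1, 2, 4 or 5, D10 TE 1, 0.0508 to 0.115), Mrps24 (any but E4 ICM 4, E4 TE 2 and D10 ICM 4, 0.0508 to 0.157), Mrps15 (any E4 library, D10 ICM 1 or 5, D10 TE 1, 4 or 5, 0.0504 to 0.126) and Mrps27 (any but E4 ICM 4 and D10 ICM 3, 0.0533 to 0.148). The 11 members called higher were 6 or 7 without E4 ICM 1, 2 or 5, E4 TE 1, 3, 4 or 5 or D10 TE 1. The number called lower was 2 without any 1 of the D10 libraries, E4 ICM 1 or 4 or E4 TE 3 or 5. With litter as a block, Mrps27 did not pass (adjusted p = 0.0576) and Mrpl2 did (adjusted p = 0.0436). Libraries of the ICM and TE of 1 litter share a replicate number within a time.

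**Figure D3:**
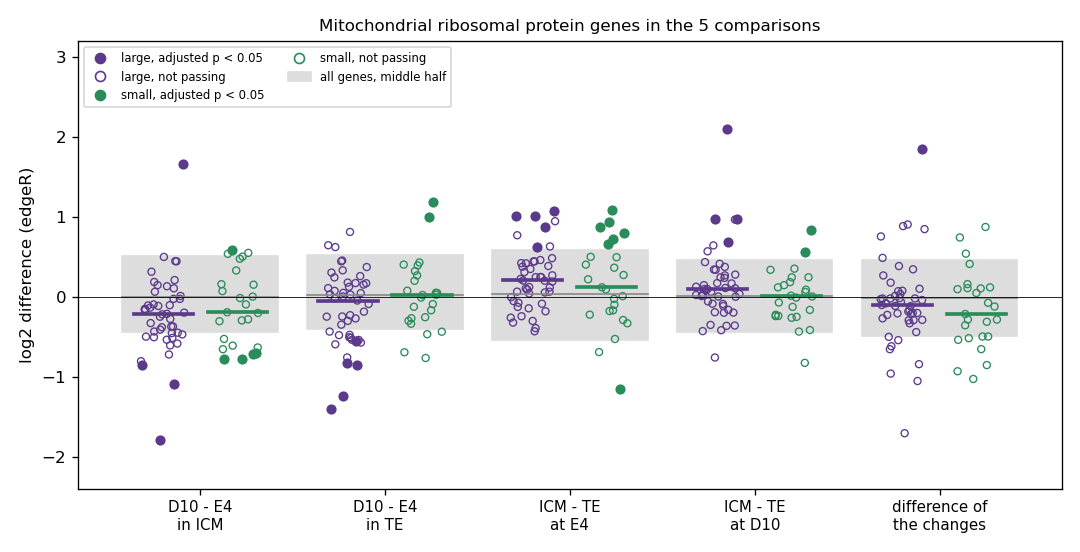
Log2 difference of each of the 72 tested members in the 5 comparisons, with large subunit genes in purple and small subunit genes in green, filled where the adjusted p was under 0.05, and their medians as thick lines. Grey boxes span the middle 50% of all 6943 genes, and most members lie within 1 log2 unit of 0 in every comparison.

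At D10 the ICM was above the TE for 6 members, 4 large and 2 small, and below it for 0. Over all tested genes 12.9% were higher in the ICM and 12.6% lower. Beside the 0 members called lower by edgeR, 1 had an unadjusted p under 0.05, DESeq2 and limma voom each called 0, and with litter as a block 1 was called, Mrps6 (log2 difference -0.89, adjusted p = 0.00892, against -0.82 ± 0.31 and 0.0509 without the block). The median log2 difference was 0.10 over the large and 0.01 over the small subunit genes, beside 0.01 over all tested genes. For 56 of 72 members the 95% interval lay within 2-fold in either direction. The groups did not overlap for 3 members that were higher, Mrpl17, Mrpl39 and Mrpl50, against 8.05% of all genes.

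Mrpl39 differed most, by 2.10 ± 0.30 on the log2 scale (adjusted p = 7.6e-06), from a level of 85.8 ± 28.2 CPM for ICM and 19.8 ± 9.66 CPM for TE. At E4 its difference had been 0.25 ± 0.29 (95% interval -0.36 to 0.85). Mrpl50 was higher in the ICM by 0.97 ± 0.27 (adjusted p = 0.00846). In order of mean level, Mrpl39 stood at D10 ICM, E4 ICM, E4 TE and D10 TE, of which neighbours overlapped, except that D10 TE did not overlap any other group. These D10 TE libraries are the same that enter the comparison over time.

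Mrpl17 had 242, 227, 205, 214 and 241 CPM in D10 ICM and 131, 179, 88.3, 143 and 161 CPM in D10 TE, a log2 difference of 0.68 ± 0.19 (adjusted p = 0.0102) with no overlap. Within the ICM it moved by -0.02 ± 0.19 between the times (95% interval -0.42 to 0.38). Mrps2 was at 118 ± 18.5 CPM in D10 ICM and 80.6 ± 14.7 in D10 TE, a difference of 0.57 ± 0.21 (adjusted p = 0.0478). Both genes were thus called higher in the ICM at E4 and at D10, in libraries from different litters. Mrps27 is a protein with RNA-binding repeats found only in mitochondrial ribosomes. It was likewise called at both times, but its E4 call was lost in 26 of 31 alternatives, among them RLE factors, DESeq2 and limma voom. It had 128, 148, 66.5, 126 and 88.2 CPM in D10 ICM and 67.5, 44.9, 48.1, 80.4 and 79.2 CPM in D10 TE, a difference of 0.84 ± 0.24 (adjusted p = 0.00956), with ICM replicate 3 inside the TE range. Mrpl2, which forms part of the peptide bond centre, had 66.5, 92.3, 49.9, 141 and 125 CPM in D10 ICM and 36.5, 46.9, 42.1, 69.9 and 54.6 CPM in D10 TE, a difference of 0.98 ± 0.27 (adjusted p = 0.00938).

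Mrpl39 kept its D10 call under every alternative run. The calls of Mrpl50 and Mrpl17 were lost with no filter (adjusted p = 0.0578 and 0.0669). Those of Mrps27 and Mrpl2 were lost in thinned libraries (0.129 and 0.212). Mrps2 lost its call with library totals only, no filter, thinning, only the groups compared or the E4 zona litters left out (0.051 to 0.196). Leaving out D10 ICM replicate 4 ended the call of Mrpl2 (adjusted p = 0.0634), and that of Mrps2 was lost without any 1 of 10 libraries (E4 ICM 3, 4 or 5, D10 ICM 1, 2 or 4, D10 TE 1, 2, 3 or 5, 0.0514 to 0.124) and with litter as a block (0.0637). Members called lower were 2 without D10 ICM replicate 4 and 1 without E4 ICM 4 or D10 TE 1 or 2.

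**Figure D4:**
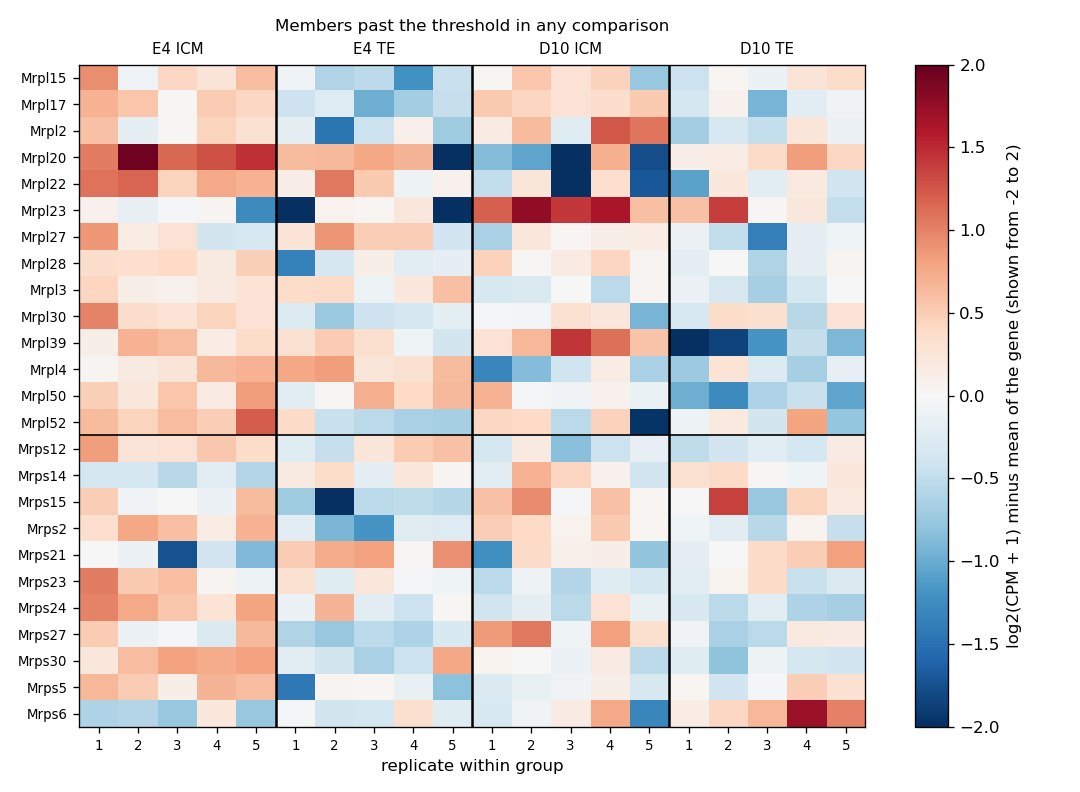
Level of the 25 members called in any comparison, as log2(CPM + 1) minus the mean of the gene, in each of the 20 libraries (columns, replicates 1 to 5 of each group), large subunit genes above the horizontal line and small below. The low D10 TE columns of Mrpl39 and Mrpl50 and the low D10 ICM columns of Mrpl20, all but replicate 4, stand out, with single libraries at the ends of the scale for genes of few counts.

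The members were also grouped by origin. Of the tested members, 44 have a bacterial counterpart and 27 were listed without one. This leaves out Mrps18a, which shares its counterpart with related genes. Between E4 and D10 in the ICM, 2 of the 44 rose and 5 fell, and 0 of the 27 rose and 2 fell, where 1 of the 27 had an unadjusted p under 0.05 in the upward direction. In the TE 2 of the 44 rose and 3 fell, and 2 of the 27 fell, which were Mrpl39 and Mrpl50. At E4 8 of the 44 and 3 of the 27 were higher in the ICM, and at D10 3 and 3. Over all genes, 13.7% rose and 9.97% fell in the ICM, 11.9% and 9.89% in the TE, and 15.8% and 12.9% were higher in the ICM at E4 and D10. With classes of this size the counts lie near those shares or below them and show nothing about origin. Within 500 bases of their 3′ ends, 8 of the 76 genes overlapped an exon on the opposite strand and 1 an exon on the same strand (GENCODE M21, GRCm38), and whether counting used strand is not given in the sources used here. These 9 were Mrpl10, Mrpl12, Mrpl19, Mrpl24, Mrpl49, Mrpl51, Mrps7, Mrps18b and Mrps25, and none of them is among the 25 members called. Mrpl12, the stalk protein that recruits translation factors, was at 182 ± 25.7 CPM in E4 ICM and 123 ± 33.0 in D10 ICM, a log2 difference of -0.54 ± 0.21 that did not pass (adjusted p = 0.0690). Mrpl58, a peptidyl-tRNA hydrolase built into the large subunit that rescues stalled ribosomes, ranged from 23.5 to 32.3 CPM in group means and passed in no comparison.

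Of 5 mitoribosomal proteins with other names, 3 were tested and moved in different directions. Dap3, a GTP-binding protein of the small subunit, was at 72.1 ± 10.9 and 109 ± 27.0 CPM in ICM and TE at E4, and at a mean of 69.9 and 163 CPM at D10. Its E4 level in the ICM was below that of the TE by 0.61 ± 0.22 (adjusted p = 0.0390), and the value at D10 was -1.16 ± 0.21 (adjusted p = 0.000164). At E4 Aurkaip1 was higher in the ICM by 0.97 ± 0.30 (adjusted p = 0.0152) and Chchd1 was at -0.78 ± 0.29 (adjusted p = 0.0413). Ptcd3 with 75 counts and Gadd45gip1 with 95 were not tested. The direction of Dap3 was thus opposite to that of the 11 and 6 members called higher in the ICM.

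Among genes that work with the mitochondrial ribosome, the tested lists held 8 to 14 genes each, so that 1 call moves a share by much, and nothing is read from the counts. Over all genes 23.7% were called in the ICM over time, 21.8% in the TE, 31.2% at E4 and 25.5% at D10, both directions together. The called share of the assembly factors was 14.3% in the TE and 28.6% at E4, that of the translation factors 16.7% over time in each tissue, that of the genes for mitochondrial DNA expression 27.3% in the ICM, and that of the tRNA synthetases 18.2% in the ICM and 27.3% in the TE. Of 14 tested assembly factors, 0 passed between E4 and D10 in the ICM by edgeR (0 higher and 1 lower at an unadjusted p under 0.05), and Mterf3 (0.88 ± 0.29 on the log2 scale) and Fastkd2 (0.85 ± 0.27) rose in the TE. Fastkd2, which binds the large ribosomal RNA, was higher in the ICM at E4 by 0.91 ± 0.28 (adjusted p = 0.0156), and Mterf4 was lower at -1.30 ± 0.39 (adjusted p = 0.0128). Mettl17, a factor of small subunit assembly, was at 33.4 ± 10.5 CPM in D10 ICM and 91.3 ± 24.0 in D10 TE, a log2 difference of -1.52 ± 0.34 (adjusted p = 0.00166). Of 12 tested translation factors, 2 rose in the ICM (Mtrfr, 1.19 ± 0.42, and Oxa1l, 0.65 ± 0.24) and 2 rose in the TE (Guf1, 2.14 ± 0.50, and Mrrf, 1.01 ± 0.26). Mrrf, the factor that recycles ribosomes after termination, went from 40.0 ± 6.08 to 82.3 ± 8.72 CPM in the TE (adjusted p = 0.00553).

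Of 11 tested genes for the expression of mitochondrial DNA, Hsd17b10, a subunit of the mitochondrial RNase P, rose in both tissues. It went from 55.1 ± 18.5 to 181 ± 50.5 CPM in the ICM (1.74 ± 0.27, adjusted p = 5.4e-05) and from 59.1 ± 16.8 to 116 ± 30.6 CPM in the TE (0.95 ± 0.27, adjusted p = 0.0118). In the ICM Grsf1, an RNA-binding protein of mitochondrial RNA granules, fell by 0.99 ± 0.21 (adjusted p = 0.00134), and Ssbp1 fell by 1.09 ± 0.26 (adjusted p = 0.00357). At E4 Grsf1 (1.45 ± 0.22) and the transcription factor of mitochondrial DNA, Tfam (1.12 ± 0.25, adjusted p = 0.00121), were higher in the ICM. Of 11 tested mitochondrial tRNA synthetases and related enzymes, 2 rose in the ICM and 3 in the TE, and Sars2 was higher in the ICM at E4 by 2.07 ± 0.37 (adjusted p = 0.000151). The changes of Sars2 differed between the tissues by -2.13 ± 0.49 (adjusted p = 0.0112). Of 8 tested regulators of mitochondrial biogenesis, 4 fell in the ICM, beside 9.97% of all genes, including Gabpa at -1.09 ± 0.31 (adjusted p = 0.0112) and Nrf1 at -0.86 ± 0.27 (adjusted p = 0.0225), the genes of factors named with the motifs above. These regulators were singled out after values had been seen. In the TE, Nrf1 alone of the 8 passed, at -0.82 ± 0.27 (adjusted p = 0.0311). At E4 Pprc1 was higher in the ICM (1.34 ± 0.27) and Ppargc1b lower (-1.31 ± 0.41), and at D10 Mycn was higher (0.98 ± 0.27) and Ppargc1b lower (-1.09 ± 0.38).

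The mitochondrial DNA encodes the products and RNA partners of the mitochondrial ribosome. Of 10 tested protein genes of mitochondrial DNA, mt-Nd2 fell in the ICM by 1.14 ± 0.31 (adjusted p = 0.00977), and in the TE mt-Nd5 rose by 1.63 ± 0.42, mt-Nd6 rose by 0.83 ± 0.29 and mt-Atp6 fell by 1.43 ± 0.39. The called share was 10.0% in the ICM and 30.0% in the TE, beside 23.7% and 21.8% of all genes. At E4 mt-Nd2 was higher in the ICM by 0.93 ± 0.31 (adjusted p = 0.0255). The ribosomal RNAs mt-Rnr1 and mt-Rnr2 passed in no comparison, which does not show that they were unchanged. In the ICM over time their log2 differences were 0.93 and 1.07 with a median SE of 0.57. There 1 of the 2 had an unadjusted p under 0.05 by edgeR. Both RNAs were chosen after values had been seen, and D10 ICM replicate 3 stood apart with 24956 and 117600 CPM, against 1028 to 1992 and 28097 to 44975 CPM in the other 4 libraries of its group. In that library 18.9% of counts came from the mitochondrial chromosome.

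The members were set beside 2 larger families. Of 79 tested cytosolic ribosomal proteins, 17 rose and 7 fell in the ICM between E4 and D10, with a median log2 difference of 0.12 against -0.20 over the 72 members. All genes gave 13.7% and 9.97% in that comparison, and the members 2 and 7. In the TE, 8 rose and 7 fell, beside 11.9% and 9.89% of all genes. Between the tissues their counts were like those of the members, with 12 higher and 4 lower in the ICM at E4 beside 11 and 1, and 9 higher at D10 beside 6. Of 78 tested nuclear genes of the respiratory chain and ATP synthase, edgeR called 0 higher and 20 lower for ICM against TE at E4 (1 and 30 at an unadjusted p under 0.05), beside 15.8% and 15.4% of all genes, with a median of -0.29 against 0.20 over the members. At D10, 2 were higher and 13 lower, beside 12.9% and 12.6% of all genes, with a median of -0.28 against 0.06. Over time in the TE, 3 of them rose and 8 fell, beside 2 and 5 of the members and 11.9% and 9.89% of all genes. These are counts side by side, and the difference between the families was not tested.

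**Figure D5:**
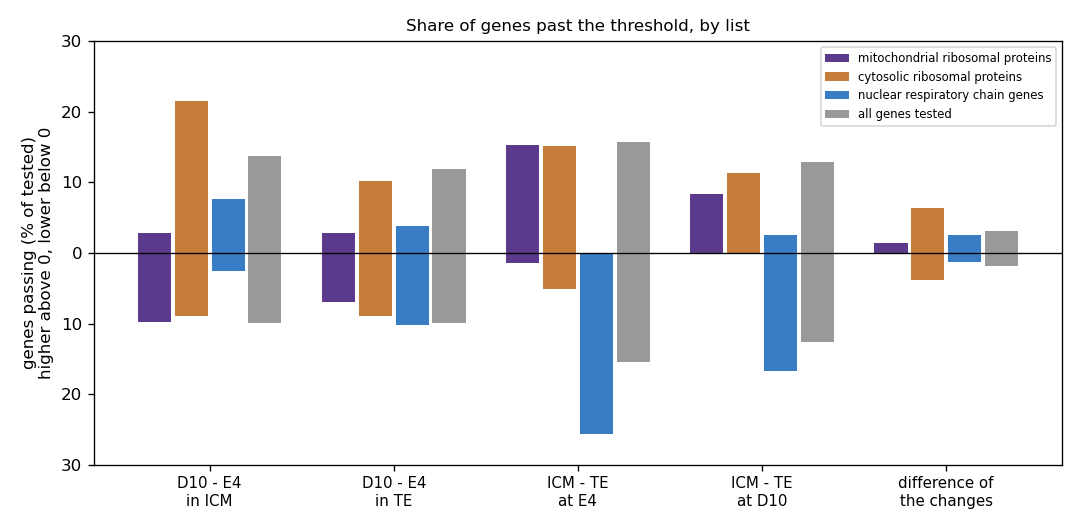
Share of tested genes called higher (above 0) and lower (below 0) in each comparison, in percent, for 72 mitochondrial ribosomal proteins, 79 cytosolic ribosomal proteins, 78 nuclear respiratory chain genes and all 6943 genes. For ICM against TE at E4, 0 respiratory chain genes were called higher and 20 lower, and of the mitochondrial ribosome 11 and 1. Over all genes 15.8% were higher and 15.4% lower, so the share of members called higher was near that of all genes.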

How the data were processed

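The authors deposited 1 table of raw counts per gene and barcode (21470 genes, 20 libraries), read here through the barcode and column names. Per the labels' protocols, tissue was reverse transcribed with barcoded oligo-dT primers, replicates of a group were mixed and amplified, and reads carried a 10-base UMI beside a 9-base library barcode (BRB-seq). Per the submitters' processing notes, the tools were HISAT2 2.2.1, featureCounts 2.0.1, Trim Galore 0.6.7 and UMI-tools, listed there without roles. The sources do not state UMI collapsing, strand or annotation. The number of embryos in a library is not stated either, so p-values cover only variation among libraries, and counting intervals cover counting error only.

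In R 4.3.3, edgeR 4.0.16 (TMM, filterByExpr with a minimum count of 10, 1 quasi-likelihood fit of 4 groups) tested 6943 genes, with Benjamini-Hochberg adjustment in each of 5 comparisons and a threshold of 0.05. CPM use the same scaled library sizes. The script was tested on simulated data. Alternatives were RLE factors, library totals, DESeq2 1.42.0, limma 3.58.1 (voom), no filter, a minimum count of 20, thinned libraries, only the groups compared, the E4 zona litters left out, litter as a block, and each library left out. Leaving out the mitochondrial chromosome or Mrps36 was added after seeing the data. The barcode list's litters pair ICM and TE within a time. ICM and TE libraries of the same litter deviated together on average (mean correlation across genes 0.177 at E4 and 0.168 at D10). Over single pairs the correlation ranged from 0.104 to 0.263 at E4 and from -0.0302 to 0.293 at D10.

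The members and lists were chosen with earlier results of these data known. Members were named where they passed (up to 10 per direction in a comparison, and all calls of a gene so named), where they had the most or fewest counts of a subunit, or for their place in the ribosome, and from related lists up to 3 per comparison. The lowest chi-square per degree of freedom between libraries of a group was 2.57, so no library was a copy of another. Gene positions are from GENCODE M21 (21442 of 21470 identifiers matched). The 8 rows of the table without a gene name stayed in the table as identifiers.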

Additional observations from a re-analysis of the deposited data

Results flagged for a closer look

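The change of Mrpl39 with time differed between the tissues by 1.85 on the log2 scale, in the test described above. In addition, 1 library stood apart from the other 4 of its group in 14 of 132 groups of 5 tested (gap over range above 0.71). Chance gives about 1 in 20 for normally distributed values. Levels that rest on few counts are not so distributed, and no excess is read from this number. In E4 ICM, replicate 1 was high for Mrpl30 (196.5 CPM, others 118 to 134), Mrps18a (82.4, others 28.7 to 38.7) and the summed large subunit genes (5053, others 4318 to 4502). In the same group replicate 5 was low for Mrpl23 (4.30 CPM, others 10.4 to 12.7) and high for Mrpl52 (133 CPM, others 78.4 to 88.8), and replicate 4 was high for Mrps6 (68.2 CPM, others 34.4 to 39.2).

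In E4 TE, Mrpl20 had 0 CPM in replicate 5 (others 28.8 to 31.6), where a count of 0 allowed up to 21.5 CPM. Mrps30 was high in that library (93.0 CPM, others 34.1 to 46.0), Mrpl52 in replicate 1 (74.8 CPM, others 35.8 to 41.5), and Mrps15 was low in replicate 2 (20.7 CPM, others 51.8 to 59.8). Mrps18b was at 2.43 CPM in replicate 3 and 0 in the others, a single count. In D10 ICM, replicate 1 was low for Mrpl27 (23.8 CPM, others 38.8 to 44.5) and high for Mrpl50 (66.5 CPM, others 37.1 to 43.0), and replicate 4 was high for Mrpl58 (55.6 CPM, others 22.2 to 28.0).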

How the results depend on the processing

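Of 35 calls of a member in a comparison, 8 passed under every alternative in which the gene was tested and 27 were lost in one or more, while none changed direction. Of 262 values for the main counts, medians, sums and ratios under alternatives other than leaving out 1 library, 200 stayed close to the reported value. Close meant within a set fold for a count, and within the SD between replicates for a median, sum or ratio. For the medians this SD was 0.12 to 0.23 on the log2 scale and exceeded several of the medians themselves. A median could thus change sign and still count as close. The causes of the changes below were not tested.

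The counts of members called moved as follows, and the share of all genes called moved too. With no filter that share was smaller in every comparison, and without the zona litters in every comparison that uses E4. Between E4 and D10 in the ICM, the 2 higher were 1 with library totals only, no filter, a minimum count of 20 or the zona litters left out, and 0 in thinned libraries or with only the groups compared, where Mrpl23 was not tested. The 7 lower were 18 with library totals only, 2 with no filter and 1 without the zona litters. The share of all genes called lower was then 16%, 3.35% and 4.97%, in place of 9.97%. In the TE, the 2 higher were 1 with limma voom or thinning and 0 without the zona litters, and the 5 lower were 3 with DESeq2 or without the zona litters, 2 with no filter and 0 after thinning. At E4, the 11 higher in the ICM were 6 with no filter and 4 without the zona litters. The share of all genes called higher was then 6% and 10.4%, in place of 15.8%. The 1 lower was 2 with RLE, DESeq2, limma voom, a minimum count of 20, only the groups compared or the mitochondrial chromosome left out. At D10, the 6 higher were 3 with no filter and 2 after thinning, and the 0 lower were 1 with no filter or with litter as a replicate block. The difference between the tissues' changes gave 0 in place of 1 higher after thinning or without the zona litters, and 2 in place of 0 lower with library totals only. Litter as a block otherwise moved the calls of Mrps27, Mrpl2, Mrps6 and Mrps2 given above and no other. A fit of only the groups compared was not run for the difference between changes, which needs all 4.

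With library totals only, the median of all genes was -0.20 in the ICM over time and 0.19 at E4. The large subunit medians were then -0.41 and 0.37 and the small subunit medians -0.39 and 0.29, and the E4 ICM sums were 4992 and 2119 CPM. In thinned libraries the small subunit median in the ICM was 0.16, the large subunit sums 5059 (E4 ICM) and 4114 CPM (E4 TE), and the small ones 2094, 1895 and 1918 CPM (E4 ICM, E4 TE, D10 TE). Without the zona litters the large subunit sum of E4 ICM was 4240 CPM. Without the mitochondrial chromosome the large sums were 5080, 4344 and 3997 CPM and the small ones 2156, 1960 and 1977 CPM (E4 ICM, E4 TE, D10 TE). With the proteins of other names added, the small sums were 2192, 1996 and 2075 CPM and the ratios 2.08, 1.90, 1.93 and 1.71 (E4 ICM, E4 TE, D10 ICM, D10 TE). With Mrps30 and Mrps18a counted as large, the ratios were 2.60, 2.45, 2.41 and 2.19, and the small sum of E4 TE 1599 CPM.

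Leaving out each library in turn gave 1 to 3 higher and 3 to 9 lower in the ICM over time, 1 to 2 and 2 to 6 in the TE, 6 to 11 and 1 to 2 at E4, 4 to 7 and 0 to 2 at D10, and 1 and 0 to 1 for the difference between changes. The large subunit median ranged from -0.32 (without D10 ICM replicate 4) to -0.096 (D10 ICM 5) in the ICM over time, -0.22 (D10 TE 4) to 0.013 (D10 TE 1) in the TE, 0.13 (E4 TE 4) to 0.26 at E4, -0.0012 (D10 ICM 4) to 0.20 (D10 ICM 5) at D10, and -0.22 to 0.025 (D10 ICM 4 and 5) for the difference between changes. The small subunit median ranged from -0.23 to -0.11 (D10 ICM 5) in the ICM, -0.099 (D10 TE 5) to 0.062 (D10 TE 3) in the TE, -0.070 (E4 ICM 2) to 0.18 at E4, -0.15 (D10 ICM 2) to 0.055 (D10 TE 5) at D10, and -0.25 to -0.012 (E4 ICM 2) for the difference between changes. These ranges take in both signs for both subunits in the TE and at D10, for the small subunit at E4 and for the large subunit in the difference between changes. Depth limits the genes of few counts most, since 25 of the 72 members were not tested in libraries thinned to 144276 counts.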
